A study of Mus musculus with 9 samples.

Results

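The genes described are those of the cytosolic ribosomal proteins and of 4 translation elongation factors in mouse liver. They were chosen by name: every protein-coding gene whose symbol has the form of a large (Rpl) or small (Rps) subunit ribosomal protein, without pseudogenes and the S6 kinases, plus Eef1a1, Eef1b2, Eef1g and Eef2. The rule found 90 of the 16266 genes present in both deposited tables. They are 43 large subunit proteins, 30 small subunit proteins, 3 proteins of the P stalk, the 4 elongation factors, and 10 paralogs, retrogenes or proteins caught by name. One of the last, Rps19bp1, encodes a protein that binds a ribosomal protein and is not itself a subunit.

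RNA sequencing of total liver RNA gave 9 libraries, 3 in each of 3 groups, all from wild-type mice. The Mettl3 ethanol livers came from mice given, through the tail vein, the adeno-associated virus AAV8-TBG-Mettl3-3×FLAG-WPRE, and then an ethanol diet for 10 days from 3 weeks after the virus, with a single ethanol binge at the end. TBG is a hepatocyte promoter, and Mettl3 is the catalytic subunit of the enzyme that writes N6-methyladenosine on RNA. The control ethanol livers had the same diet and binge with AAV8-TBG-MCS-3×FLAG-WPRE, which carries no Mettl3. The pair-fed livers had a control diet and a maltose binge; the sample titles of both groups without Mettl3 say WT, and the control virus of both is taken from the study's design. Strain, sex and age are not in the labels used here, and no label names an animal, so that p-values measure the spread between these samples.

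Ribosomal proteins build the subunits that read mRNA (small) and join amino acids (large), and elongation factors carry the ribosome along the mRNA. A growing or well-fed cell needs the proteins in nearly equal numbers. Most of their mRNAs begin with a C followed by a run of further pyrimidines, the terminal oligopyrimidine (TOP) tract, through which the kinase complex mTORC1 and the protein Larp1 set how much of the mRNA is translated and kept. In liver the proteins serve the hepatocyte's large output of plasma proteins.

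The stretches around the transcript start are shown for 5 of the members with such a tract at an annotated start, and for Rpl7l1 and Rplp0, whose annotated start has none. Rplp2 stands beside Rplp0 as another protein of the P stalk. Rpl35a also has other annotated starts, without such a tract, which are not shown. Each stretch is 30 bases from RefSeq (GRCm38.p6) on the strand that reads as the mRNA does, 15 before the start and 15 from it on. The capitals mark a C with at least 4 further pyrimidines.
Rps18, chr17:33955651-33955680, minus strand: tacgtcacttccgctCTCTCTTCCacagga
Rps27, chr3:90213634-90213663, minus strand: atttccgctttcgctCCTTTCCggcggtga
Rpl35a, chr16:33056467-33056496, plus strand: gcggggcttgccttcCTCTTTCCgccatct
Rps6, chr4:86857353-86857382, minus strand: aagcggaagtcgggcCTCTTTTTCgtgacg
Rpl7l1, chr17:46782642-46782671, minus strand: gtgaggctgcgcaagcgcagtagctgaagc
Rplp2, chr7:141447636-141447665, plus strand: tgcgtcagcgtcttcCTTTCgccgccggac
Rplp0, chr5:115559452-115559481, plus strand: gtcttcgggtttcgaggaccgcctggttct
Of 68 members with a RefSeq start region, 15 (22.1%) had such a run at an annotated start base, against 813 of 27025 genes (3.01%) in the whole table. Within 10 bases of a start it was found for 40 members (58.8%) and for 34.4% of all genes. The search used the mRNA-sense strand only and the annotated base as the start, so a gene with no match may still start with the tract at another base.

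Across the libraries 34656256 to 38159563 reads were counted, and the gene carried by the virus was highest in the livers given it. Mettl3 had 38.5, 24.98 and 33.3 FPKM (reads scaled to gene length and to the reads of the library) in the Mettl3 ethanol livers, 5.44, 4.86 and 3.78 FPKM in the control ethanol livers and 3.97, 3.10 and 3.38 FPKM in the pair-fed livers. Hepatocyte markers summed to 58442 to 65988 FPKM in Mettl3 ethanol livers, 59761 to 72627 FPKM in control ethanol livers and 61803 to 69695 FPKM in pair-fed livers, in each case far above every other cell type list, as the tissue label says. The 50 genes with the highest FPKM of each library took 51.5% to 56.5% of all FPKM in Mettl3 ethanol livers, 51.3% to 56.2% in control ethanol livers and 45.7% to 48.2% in pair-fed livers. The factors that a median-ratio scaling gives were 0.858 to 0.996 in Mettl3 ethanol livers, 0.898 to 1.06 in control ethanol livers and 1.09 to 1.13 in pair-fed livers. FPKM as deposited are scaled to the library total, so the calls and medians of the members are also given after that scaling. Other values below, among them sums, overlaps of single libraries and marker counts, are as deposited unless the scaling is named.

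One library stood apart from the rest for 8 members. In control ethanol liver 1 the mRNAs of Eef1a1, Rplp0, Rpl26, Rps18, Rps3, Rpl13, Rps3a1 and Rps2 were more than 4-fold, and also more than 8-fold, below the level in each of the other 8 libraries. No member was that low in any other library. Among all 10229 genes that reached an FPKM of 1 in 3 or more libraries, 10 (0.0978%) met the same rule in that library, and the other 2 were Npm1, a nucleolar ribosome assembly chaperone whose mRNA also has a TOP tract, and Hamp, the iron hormone hepcidin.

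**Figure D1:**
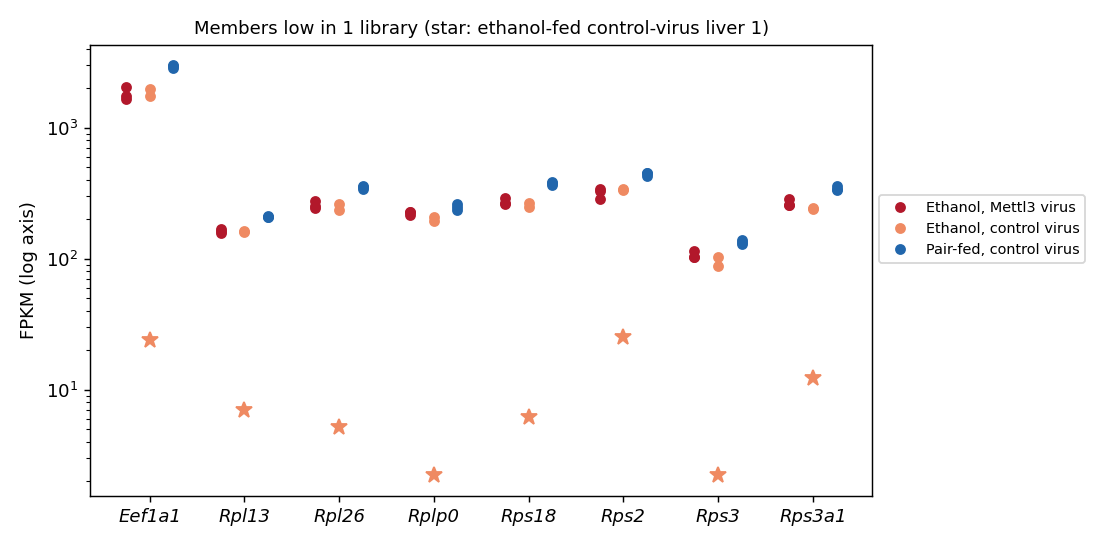
FPKM (log axis) of the 8 members that were low in 1 library, with each point a library, coloured by group, and the star marking control ethanol liver 1. For each of the 8 genes the star lies far below the other 8 points.

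Eef1a1, which brings aminoacyl-tRNA to the ribosome and had the highest mean of all members (2003 FPKM over 9 libraries), had 1649, 1751 and 2047 FPKM in the Mettl3 ethanol livers, 24.03, 1987 and 1752 FPKM in the control ethanol livers and 2961, 2999 and 2858 FPKM in the pair-fed livers. The first control ethanol liver held 1491 reads of it, and the second 132585. Rplp0, the base protein of the P stalk, had 226, 228 and 214 FPKM in the Mettl3 ethanol livers, 2.25, 207 and 193 FPKM in the control ethanol livers and 262, 247 and 237 FPKM in the pair-fed livers. Its first control ethanol liver was at 1.13% of the mean of the other two, the lowest share of any member, and that of Rps2 was at 7.50%, the highest among the 8. The next member in order was Rpl4 at 60.3%, followed by Rps27 at 69.1%, so a wide gap separates the 8 from the other members.

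The other 6 had the same low library. Rps18, of the small subunit head, had 259.9, 267 and 288 FPKM in Mettl3 ethanol livers, 6.15, 248 and 264 FPKM in control ethanol livers and 377, 367 and 386 FPKM in pair-fed livers. Rpl26, at the rim of the large subunit's exit tunnel, had 244, 252 and 273 FPKM in Mettl3 ethanol livers, 5.15, 237 and 259 FPKM in control ethanol livers and 349.6, 342 and 361 FPKM in pair-fed livers. Rps3, at the mRNA entry channel, had 103, 103 and 115 FPKM in Mettl3 ethanol livers, 2.23, 87.9 and 103 FPKM in control ethanol livers and 133, 129.5 and 138 FPKM in pair-fed livers. In each of these genes control ethanol livers 2 and 3 lay near the Mettl3 ethanol livers and below the pair-fed livers. Rps3a1, of the small subunit, had 257, 257 and 284 FPKM in Mettl3 ethanol livers, 12.4, 239 and 245 FPKM in control ethanol livers and 340.0, 336 and 356 FPKM in pair-fed livers. Rpl13, of the large subunit, had 163, 157 and 169 FPKM in Mettl3 ethanol livers, 6.95, 160.0 and 162 FPKM in control ethanol livers and 211, 209 and 209 FPKM in pair-fed livers. Rps2, of the small subunit, had 286, 326 and 339.7 FPKM in Mettl3 ethanol livers, 25.2, 338 and 335 FPKM in control ethanol livers and 424, 448 and 448 FPKM in pair-fed livers. All 3 were low in control ethanol liver 1.

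The 8 genes do not lie together. In the RefSeq annotation of GRCm38 Eef1a1 is on chromosome 9, 78478453 to 78481724, Rplp0 on chromosome 5, 115559467 to 115563729, Rpl26 on chromosome 11, 68901566 to 68904534 and Rps3 on chromosome 7, 99477896 to 99483709. Rpl13 is on chromosome 8, 123102350 to 123105244 and Rps3a1 on chromosome 3, 86137940 to 86142668, while Rps18 (chromosome 17, 33951998 to 33955665) and Rps2 (chromosome 17, 24718121 to 24721927) share a chromosome and are far apart. Their subunits differ as well: 4 are small subunit proteins, 2 are large subunit proteins, 1 belongs to the P stalk and 1 is an elongation factor. The same library had the lowest neutrophil marker sum of its group, 9.17 FPKM beside 67.8 and 74.3 FPKM in control ethanol livers 2 and 3, and the smallest read total of the 9; their part in the low values was not tested. Ribosomal protein genes share sequence with many retrocopies in the genome, and how the authors' counting treated strand and reads with several matches is not given in the sources used here, so single values of these genes are uncertain to that extent.

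In FPKM as deposited, the summed level of the set was lower in both ethanol groups than in pair-fed livers. The 90 members summed to 14811, 15015 and 16196 FPKM in the Mettl3 ethanol livers, to 11656, 14585 and 14564 FPKM in the control ethanol livers and to 19902, 19617 and 20332 FPKM in the pair-fed livers. As a share of all FPKM of the library this was 3.08%, 3.12% and 3.44% in the Mettl3 ethanol livers, 2.49%, 3.12% and 3.00% in the control ethanol livers and 4.24%, 4.23% and 4.40% in the pair-fed livers. As deposited, neither ethanol group overlapped with the pair-fed group in either measure, and the 2 ethanol groups overlapped with each other in the share. The sums in this paragraph are not given after median-ratio scaling, so their separation holds for FPKM as deposited. The share is unchanged by a factor per library, but it is relative to the library total and so depends on what the highest genes take. The 50 highest genes took a mean of 54.6% in Mettl3 ethanol livers, 53.5% in control ethanol livers and 47.0% in pair-fed livers. Their part in the lower share was not tested. Without the 8 genes above, the sum was 11624, 11673 and 12466 FPKM in Mettl3 ethanol livers, 11572, 11081 and 11250 FPKM in control ethanol livers and 14845, 14540 and 15340 FPKM in pair-fed livers. In bulk liver, fewer cells of a type and less RNA per cell cannot be told apart.

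**Figure D2:**
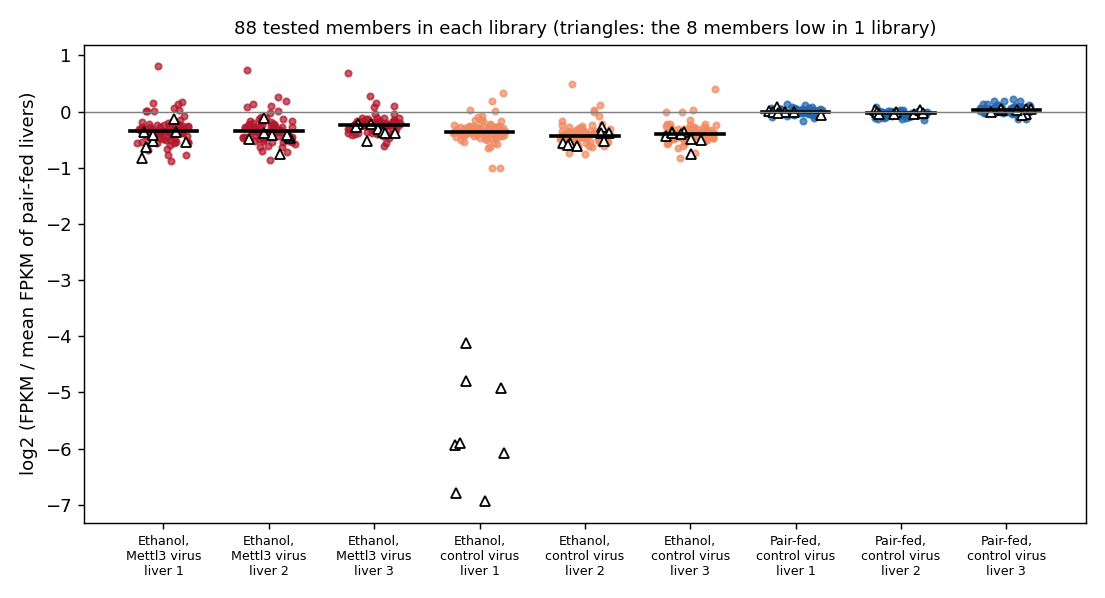
Each of the 88 tested members in each library as log2 of its FPKM over the mean of the pair-fed livers; points are genes, the black bar is the median of the library, and open triangles are the 8 members low in 1 library. The bulk of the points lies below 0 in all 6 ethanol-fed livers, and the triangles drop far below the other members only in control ethanol liver 1.

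Large subunit proteins summed to 6838 ± 268 FPKM in Mettl3 ethanol livers, 6363 ± 114 FPKM in control ethanol livers and 8521 ± 180.1 FPKM in pair-fed livers (SD, n = 3 each). Small subunit proteins summed to 5154 ± 239.8 FPKM in Mettl3 ethanol livers, 4588 ± 446 FPKM in control ethanol livers and 6609 ± 212 FPKM in pair-fed livers (SD, n = 3 each). Among the large subunit genes the mean FPKM in pair-fed livers ran from 20.5 for Rpl21 to 554 for Rpl41, and among the small subunit genes from 16.8 for Rps15a to 440.1 for Rps2. Of the 90, 2 members were too low to test: Rpl32l lay between 0.0450 and 0.585 FPKM in every library, and Rps23rg1 is described with the retrogenes.

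The first comparison, control ethanol against pair-fed livers, asks what ethanol feeding did to these mRNAs under the control virus. Of the 88 members tested, 65 fell and 1 rose (limma's moderated test on log2(FPKM + 1), Benjamini-Hochberg adjusted p under 0.05 over all genes), where 26.0% of all 10064 genes tested were called lower and 10.0% higher. The members' median log2 fold change was −0.40, and that of all genes was −0.14. After median-ratio scaling 11 members were lower, all of them among the 65, and 2 were higher, where 16.7% of all genes were called lower and 17.6% higher. The median was then −0.21 for the members and 0.01 for all genes. The scaling moves the median of all genes by 0.15, and relative to that median the members stood at −0.26 as deposited and at −0.22 after scaling.

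Leaving out control ethanol liver 1 gave 79 lower and 1 higher, with a median of −0.41, where 36.9% of all genes were called lower and 11.1% higher. Omitting pair-fed liver 1 left 33 lower members, where 15.4% of all genes were called lower. Omitting pair-fed liver 2 or pair-fed liver 3 left 26 each, where 11.5% of all genes were called lower in each fit. Of all 90 members, 82 were lower in each control ethanol liver than in every pair-fed liver, as were 36.6% of all genes, and 1 was higher in each, as were 15.9% of all genes. The 7 that overlapped were Rpl12, Rpl22l1, Rpl3, Rpl32l, Rpl36al, Rps19bp1 and Rps27rt.

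Of the elongation factors, Eef2 and Eef1b2 fell. Eef2, the GTPase that moves the ribosome by a codon, had 296, 311 and 364 FPKM in Mettl3 ethanol livers, 347, 367 and 303 FPKM in control ethanol livers and 516, 503 and 502 FPKM in pair-fed livers. All 6 ethanol-fed livers were below all 3 pair-fed livers, and the log2 fold change of control ethanol over pair-fed livers was −0.58 (SE 0.10, limma adjusted p = 0.00646); it was −0.40 after median-ratio scaling (limma adjusted p = 0.0196). Eef1b2, the exchange factor that reloads eEF1A with GTP, had 50.8, 51.03 and 52.1 FPKM in Mettl3 ethanol livers, 50.4, 48.6 and 45.6 FPKM in control ethanol livers and 63.2, 60.7 and 60.1 FPKM in pair-fed livers. The log2 fold change of Eef1b2 was −0.34 (SE 0.086, limma adjusted p = 0.0206), and −0.16 after scaling (limma adjusted p = 0.155). Eef1g, the scaffold subunit of the same exchange complex, did not pass the test: it had 61.7, 76.1 and 65.8 FPKM in control ethanol livers and 80.02, 80.6 and 79.5 FPKM in pair-fed livers, a log2 fold change of −0.24 (limma adjusted p = 0.103) that turned to 0.07 after scaling without control ethanol liver 1.

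Eef1a1 depends on the library that stood apart. With all 6 libraries its log2 fold change was −2.73 with an SE of 1.64, and it did not pass the test (limma adjusted p = 0.232). Without control ethanol liver 1 the log2 fold change was −0.65 (SE 0.10, limma adjusted p = 0.00285). The same holds in FPKM as deposited for the other 7 genes of that set. None was called with all libraries, at log2 fold changes of −2.29 to −1.61. All 7 were called lower without that liver, at −0.56 to −0.31. With median-ratio scaling and without that liver, a setting chosen after seeing the data, Eef1a1 was still called lower. None of the other 7 was called in that setting. The median log2 fold change of these genes and Eef1a1 together was then −0.24.

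In the P stalk, which recruits the elongation factors to the ribosome, Rplp1 had 347, 359.6 and 378 FPKM in Mettl3 ethanol livers, 396, 352 and 341 FPKM in control ethanol livers and 462, 461 and 537 FPKM in pair-fed livers. Rplp2, its partner in the stalk's dimers, had 142, 146 and 147 FPKM in Mettl3 ethanol livers, 135, 145 and 137 FPKM in control ethanol livers and 171, 171 and 181 FPKM in pair-fed livers. Both fell with ethanol as deposited, Rplp1 by a log2 fold change of −0.42 (limma adjusted p = 0.0239) and Rplp2 by one of −0.33 (limma adjusted p = 0.0240). Neither was called after scaling, at −0.24 for Rplp1 and −0.14 for Rplp2.

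Among large subunit proteins 34 of 43 fell and none rose; the 9 without a call were Rpl26, Rpl13, Rpl4, Rpl15, Rpl27, Rpl27a, Rpl10a, Rpl12 and Rpl3. Rpl22, an RNA-binding protein of the subunit surface, had the most negative log2 fold change among called members. It had 29.3, 29.8 and 35.5 FPKM in Mettl3 ethanol livers, 34.6, 32.3 and 30.5 FPKM in control ethanol livers and 53.7, 55.5 and 53.8 FPKM in pair-fed livers, so that the ethanol-fed livers lie apart from the pair-fed ones by more than the spread within any group. Its log2 fold change was −0.73 (SE 0.089, limma adjusted p = 0.00204) and −0.55 after scaling (limma adjusted p = 0.00361). Rpl35a, one of the proteins mutated in human Diamond-Blackfan anaemia, has a TOP tract at the annotated start shown above. It had 163, 168 and 188 FPKM in Mettl3 ethanol livers, 189, 166 and 176 FPKM in control ethanol livers and 277, 256 and 300.2 FPKM in pair-fed livers. For Rpl35a the log2 fold change was −0.64 (SE 0.10, limma adjusted p = 0.00443) and −0.46 after scaling (limma adjusted p = 0.0182).

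By mean FPKM over the 9 libraries the highest members after Eef1a1 were Rpl41 (495 FPKM) and Rpl10 (439 FPKM). Rpl41, among the shortest proteins of the cell, had 498, 464 and 505 FPKM in Mettl3 ethanol livers, 444, 434 and 449 FPKM in control ethanol livers and 567, 542 and 554 FPKM in pair-fed livers. Rpl10, which joins the large subunit late in its assembly, had 429, 423 and 423 FPKM in Mettl3 ethanol livers, 413, 401 and 386 FPKM in control ethanol livers and 502, 480.5 and 489.7 FPKM in pair-fed livers. Control ethanol livers were lower than pair-fed livers in every library for both, with log2 fold changes of −0.32 for Rpl41 (limma adjusted p = 0.0252) and −0.29 for Rpl10 (limma adjusted p = 0.0363). Neither was called after scaling.

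Rpl3, whose protein reaches into the peptidyl transferase centre, did not pass the test as deposited. It had 225, 215 and 227 FPKM in Mettl3 ethanol livers, 232, 222 and 202 FPKM in control ethanol livers and 211, 215 and 186 FPKM in pair-fed livers, and the control ethanol and pair-fed livers overlap. The log2 fold change of Rpl3 for control ethanol over pair-fed livers was 0.10 (limma adjusted p = 0.469) as deposited and 0.29 after scaling, where it was called higher (limma adjusted p = 0.0470). Rpl12, which forms the base on which the P stalk sits, had 180.5, 177 and 174 FPKM in Mettl3 ethanol livers, 181, 159 and 154 FPKM in control ethanol livers and 175, 181 and 181 FPKM in pair-fed livers, again with overlap. The log2 fold change of Rpl12 was −0.12 as deposited and turned to 0.064 after scaling, and neither was called.

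Among small subunit proteins 25 of 30 fell and none rose, and 4 of the 5 without a call were low in control ethanol liver 1; the other was Rps28. Rps6, the substrate of the S6 kinases and another member whose tract is shown above, had 166, 177 and 172 FPKM in Mettl3 ethanol livers, 154, 149 and 158 FPKM in control ethanol livers and 199.8, 197 and 201 FPKM in pair-fed livers, a log2 fold change of −0.37 for control ethanol over pair-fed livers (limma adjusted p = 0.0138; −0.18 after scaling, limma adjusted p = 0.197). Rps6 lies outside the rule for named genes and was chosen after its values were seen. Rps27, a zinc finger protein of the subunit's solvent side, had 217, 215 and 221 FPKM in Mettl3 ethanol livers, 135, 184 and 207 FPKM in control ethanol livers and 261, 245 and 310.1 FPKM in pair-fed livers. Its first control ethanol liver was the lowest of the 9, and the log2 fold change was −0.65 (SE 0.17, limma adjusted p = 0.0259) with that liver and −0.47 without it (limma adjusted p = 0.0210). Rps19, mutated in human Diamond-Blackfan anaemia, showed less spread within the control ethanol livers. Rps19 had 67.2, 63.2 and 67.9 FPKM in Mettl3 ethanol livers, 58.8, 60.2 and 60.9 FPKM in control ethanol livers and 89.9, 85.7 and 88.8 FPKM in pair-fed livers, a log2 fold change of −0.55 (SE 0.081, limma adjusted p = 0.00357). Rps19 stayed called after scaling, at −0.36 (limma adjusted p = 0.0307).

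**Figure D3:**
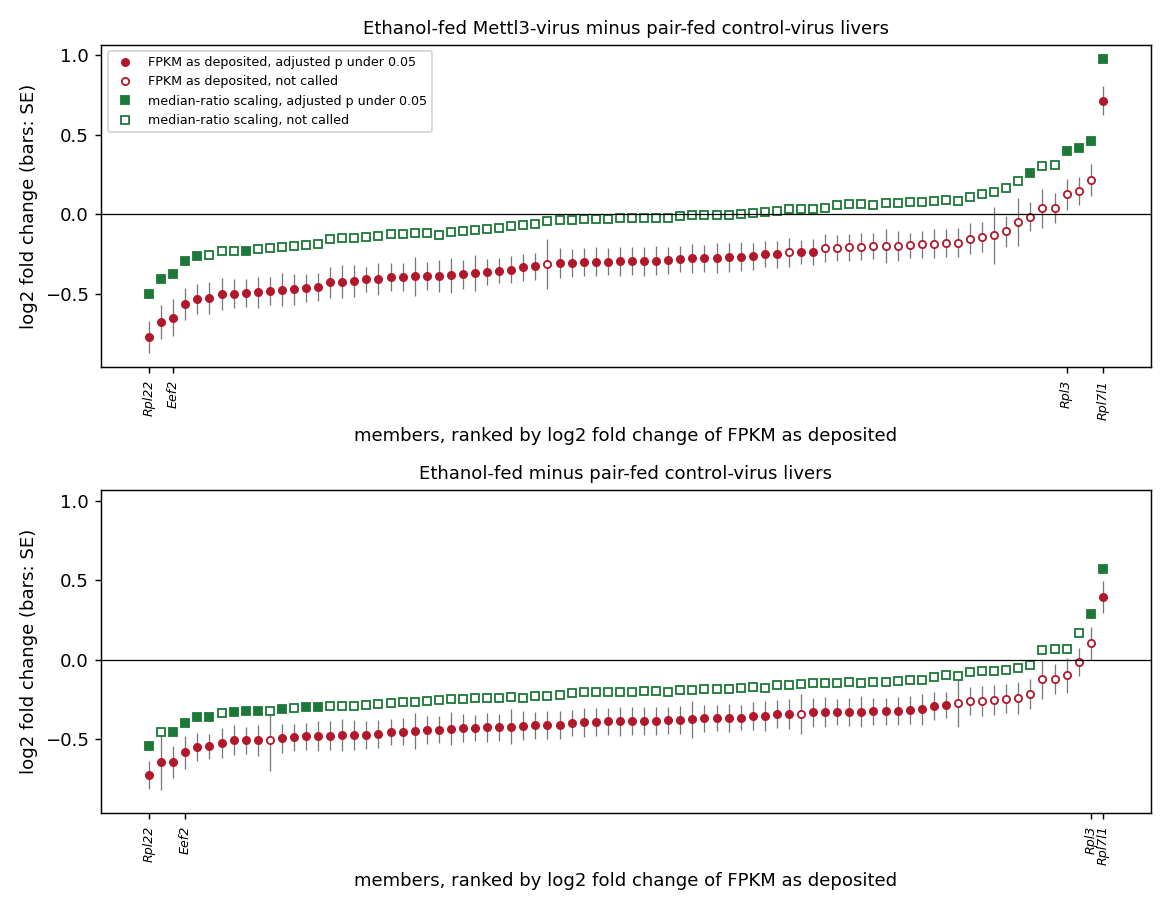
log2 fold changes of the 80 tested members other than the 8 low in 1 library, ranked, for Mettl3 ethanol over pair-fed livers (top) and control ethanol over pair-fed livers (bottom); red circles are FPKM as deposited with SE bars, green squares median-ratio scaling, filled where the adjusted p is under 0.05. Most circles lie below 0 and the squares lie nearer to it, with Rpl22 at the low end and Rpl7l1 at the high end of both panels.

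The authors' deposited table, from their DESeq2 test of the same 2 groups, called 12 of the 90 members at q under 0.05, where 26.6% of its rows were called. Of the 12 members 10 were lower and 2, Rpl3 and Rpl7l1, were higher. Of the 16842 rows 2117 were lower and 2361 higher, so the share of lower members was near that of all rows. The median log2 fold change of the members in the authors' deposited table was −0.21. The lower ones included Eef2, Rpl22, Rpl35a, Rpl7, Rps19, Rps20, Rps23rg1 and Rps9, and all of the 10 but Rps23rg1 are among the 65.

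Some cell type markers differed between the same groups, in a fit of FPKM as deposited that called 26.0% of all genes lower and 10.0% higher. Without control ethanol liver 1 the share called higher was 11.1%. Of 6 Kupffer cell markers tested 5 fell in control ethanol livers, with sums of 86.0 to 134 FPKM in control ethanol livers and 166 to 193 FPKM in pair-fed livers. Of 6 sinusoidal endothelial markers 4 fell and 1 rose, with sums of 83.3 to 83.7 FPKM in control ethanol livers and 100.1 to 112 FPKM in pair-fed livers. Of 6 stellate cell markers 2 fell, of 2 T and B cell or leukocyte markers tested 1 fell, and of 4 cholangiocyte markers tested 1 rose. Neutrophil markers summed to 9.17 to 74.3 FPKM in control ethanol livers and 7.41 to 11.4 FPKM in pair-fed livers, with 1 of 4 tested called higher, or 4 of 4 without control ethanol liver 1, and of 9 hepatocyte markers 2 rose and 1 fell. No marker was at 0 in any library, and the part of these cells in the members' values was not tested.

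The second comparison, Mettl3 ethanol against control ethanol livers, asks what added Mettl3 did under ethanol. No member passed the test in either direction, and 1 of the 9706 genes tested did (0.0103%). At an unadjusted p under 0.05 there were 3 members, against 723 of all genes, and limma-voom on the recovered reads called none. The authors' deposited table also called none at q under 0.05, where 0.613% of its rows were called. The members' median log2 fold change was 0.09, and that of all genes was −0.04, a difference of 0.14 that the scaling left at 0.15. Single libraries did not overlap for 27 members, all higher in the Mettl3 ethanol livers, where 5.89% of all genes were higher and 6.79% lower without overlap. The control ethanol livers are those of the first comparison, so the 2 sets of values share 3 libraries.

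The 3 members with an unadjusted p under 0.05 were Rpl7l1, Rps19bp1 and Eef1g. Eef1g had 81.8, 80.95 and 84.3 FPKM in Mettl3 ethanol livers, against 61.7, 76.1 and 65.8 FPKM in control ethanol livers, a log2 fold change of 0.28 (SE 0.12, limma adjusted p = 0.641). Each of its Mettl3 ethanol livers was slightly above every pair-fed liver (80.02, 80.6 and 79.5 FPKM), at a log2 fold change of 0.041 that was not called. With median-ratio scaling on the 6 libraries of these groups alone, chosen after seeing the data, Eef1g was called higher than in pair-fed livers. Rps19bp1, which binds Rps19 and the deacetylase Sirt1, had 9.65, 10.3 and 10.5 FPKM in Mettl3 ethanol livers, against 7.79, 8.76 and 7.35 FPKM in control ethanol livers, a log2 fold change of 0.32 (SE 0.11, limma adjusted p = 0.641). At the other end stood Rpl10a with 142, 137 and 142 FPKM in Mettl3 ethanol livers, against 162, 147 and 137 FPKM in control ethanol livers, and Rps15 with 213, 209.8 and 250.1 FPKM in Mettl3 ethanol livers, against 238, 233 and 236 FPKM in control ethanol livers. Their log2 fold changes of −0.075 for Rpl10a and −0.075 for Rps15, like those of Eef2 (−0.066), Rps28 (−0.050), Rpl22 (−0.042) and Rpl36 (−0.040), were within 1 SE of 0 and turned above 0 after median-ratio scaling.

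The members low in control ethanol liver 1 had the largest fitted differences here as well. Rplp0 came out at a log2 fold change of 2.14 with an SE of 1.49 (limma adjusted p = 0.681), and at 0.16 without that liver. Eef1a1 came out at 2.03 with an SE of 1.56 (limma adjusted p = 0.698), and turned to −0.045 without it. For all 8 the median was 1.80 with that liver and 0.07 without it, and none was called in either fit.

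The third comparison sets the Mettl3 ethanol livers against the pair-fed livers, for which all 9 libraries were fitted together. It shares the pair-fed livers with the first comparison and the Mettl3 ethanol livers with the second. Of the 88 members 54 fell and 1 rose, where 34.9% of 10229 genes were called lower and 13.9% higher. The members' median was −0.30, and that of all genes was −0.18. After median-ratio scaling 6 were lower, all among the 54, and 5 were higher, where 21.6% of all genes were called lower and 25.3% higher. The 5 were Rpl7l1, Rpl12, Rpl3, Rpl36al and Rps19bp1. The medians were then −0.03 for the members and 0.03 for all genes. The scaling moves the median of all genes by 0.22, and relative to it the members stood at −0.12 as deposited and at −0.06 after scaling.

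Control ethanol liver 1 enters this comparison through the filter of genes and the shared estimate of spread. Fitted without that liver, 62 members fell and 1 rose, where 37.4% of all 10159 genes tested were called lower and 14.7% higher. With the 6 libraries of the 2 groups alone 60 fell and 1 rose, where 37.8% were called lower and 14.6% higher; 7 of the 8 members low in that liver were among them (all but Rplp0). Omitting Mettl3 ethanol liver 1 or liver 2 left 30 lower members each, where 25.0% of all genes were called lower without liver 1 and 24.2% without liver 2. Omitting pair-fed liver 1 or liver 2 left 34 each, where 26.6% were called lower without liver 1 and 24.0% without liver 2, and omitting pair-fed liver 3 left 29, where 23.8% were. Single libraries did not overlap for 78 members that were lower in the Mettl3 ethanol livers, against 44.2% of all genes, and for 5 that were higher, against 19.3%.

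By role, 31 of 43 large subunit proteins fell, 19 of 30 small subunit proteins, 2 of 3 P stalk proteins (Rplp1 and Rplp2) and 2 of 4 elongation factors (Eef2 and Eef1b2), of which Rplp2 at 0.0051 and Eef1b2 at 0.015 turned above 0 after scaling. Rpl22 was again at the low end, with a log2 fold change of −0.77 (SE 0.10, limma adjusted p = 0.000922) and of −0.50 after scaling (limma adjusted p = 0.00185). The log2 fold change was −0.68 for Rpl35a (limma adjusted p = 0.00163) and −0.65 for Eef2 (limma adjusted p = 0.00254). Rpl36, which had 67.6, 70.4 and 81.7 FPKM in Mettl3 ethanol livers, against 107, 102 and 116 FPKM in pair-fed livers, changed by −0.56 (limma adjusted p = 0.00298). Rps15, of the small subunit head, had 213, 209.8 and 250.1 FPKM in Mettl3 ethanol livers, against 327, 319 and 325 FPKM in pair-fed livers, and changed by −0.53 (limma adjusted p = 0.00286). Rpl22, Rpl35a, Eef2, Rpl36 and Rps15 were also called after scaling.

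The marker counts of this comparison come from the fit of FPKM as deposited, which called 34.9% of all genes lower and 13.9% higher. Neutrophil markers summed to 48.9 to 106 FPKM in the Mettl3 ethanol livers and 7.41 to 11.4 FPKM in the pair-fed livers, with 4 of 5 tested called higher. Kupffer cell markers summed to 69.2 to 144 FPKM in the Mettl3 ethanol livers and 166 to 193 FPKM in the pair-fed livers, with 5 of 6 called lower. Sinusoidal endothelial markers summed to 83.6 to 94.3 FPKM in the Mettl3 ethanol livers and 100.1 to 112 FPKM in the pair-fed livers, with 3 of 6 called lower and 1 higher. Leukocyte and T and B cell markers summed to 3.38 to 6.38 FPKM in the Mettl3 ethanol livers and 7.96 to 10.8 FPKM in the pair-fed livers, with neither of 2 tested called. Of 6 stellate cell markers 3 fell, with sums of 113 to 123 FPKM in the Mettl3 ethanol livers and 113 to 136 FPKM in the pair-fed livers. Of 4 cholangiocyte markers tested 1 rose and 1 fell, and of 9 hepatocyte markers 2 rose and 2 fell. Their part in the members' values was not tested.

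The only member called higher than in pair-fed livers in FPKM as deposited was Rpl7l1. It is a relative of Rpl7 that resembles the yeast large subunit assembly factor Rlp7. It had 29.8, 28.4 and 27.7 FPKM in the Mettl3 ethanol livers, 21.6, 23.9 and 22.7 FPKM in the control ethanol livers and 18.6, 15.7 and 16.9 FPKM in the pair-fed livers, and no 2 groups overlap. It rose in control ethanol over pair-fed livers by a log2 fold change of 0.39 (SE 0.10, limma adjusted p = 0.0216). Over the alternatives the limma adjusted p ran from 0.00267 to 0.104. The call was lost with the replicate block, and when control ethanol liver 2, pair-fed liver 2 or pair-fed liver 3 was omitted. In Mettl3 ethanol over pair-fed livers it rose by 0.72 (SE 0.093, limma adjusted p = 0.000922), and was called in every alternative run. In Mettl3 ethanol over control ethanol livers the log2 fold change was 0.32 (SE 0.10), short of the threshold (limma adjusted p = 0.641).

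Its relative Rpl7, a core protein of the large subunit, went the other way. Rpl7 had 242, 253 and 271 FPKM in Mettl3 ethanol livers, 264, 244 and 248 FPKM in control ethanol livers and 355, 348 and 354 FPKM in pair-fed livers. Rpl7 fell, with a log2 fold change of −0.48 in control ethanol over pair-fed livers (limma adjusted p = 0.00663) and one of −0.46 in Mettl3 ethanol over pair-fed livers (limma adjusted p = 0.00354). After scaling these were −0.30, still called (limma adjusted p = 0.0429), and −0.19, no longer called (limma adjusted p = 0.0978). The annotated start of Rpl7l1 printed above holds no marked run. Of the 68 members with a RefSeq start region 15 had the run at a start base, so its absence there was common among the members. A link between the tract and the direction of change was not tested.

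**Figure D4:**
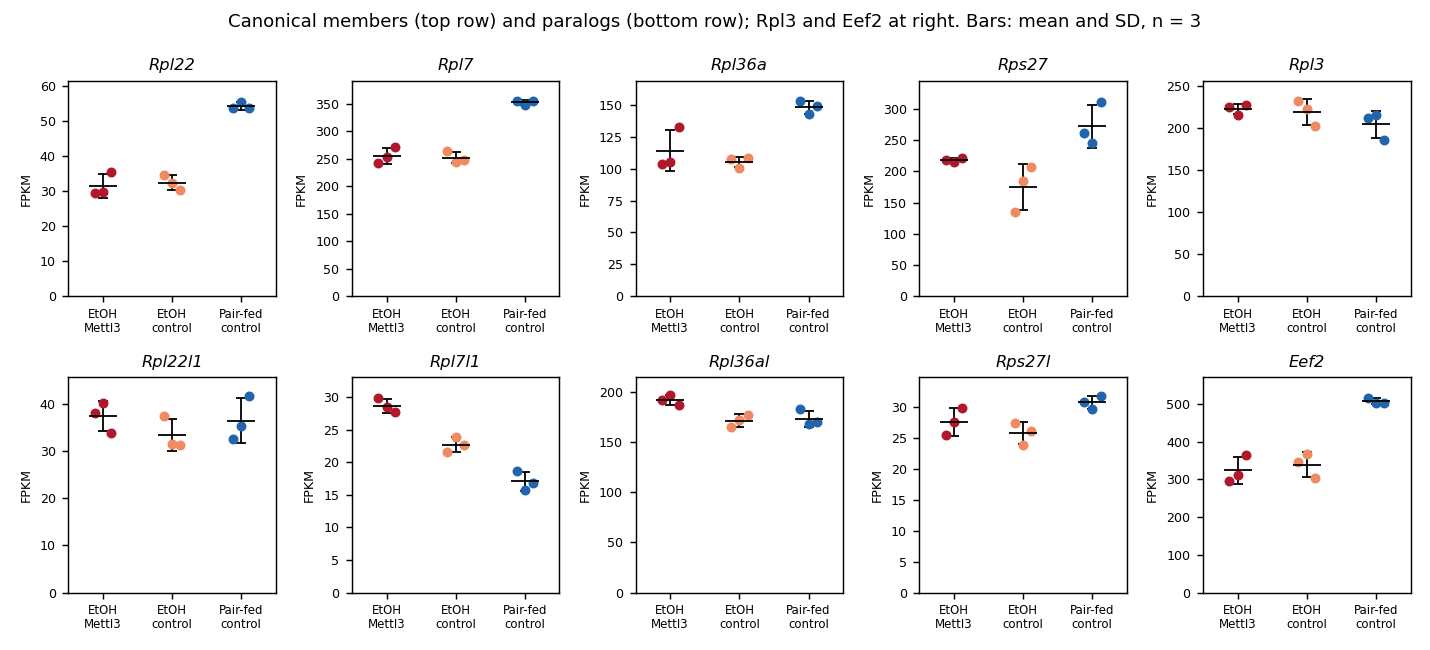
FPKM per library of 4 pairs of related genes (Rpl22 and Rpl22l1, Rpl7 and Rpl7l1, Rpl36a and Rpl36al, Rps27 and Rps27l) and of Rpl3 and Eef2, in Mettl3 ethanol, control ethanol and pair-fed livers from left to right; points are libraries and bars means, on axes that start at 0. Rpl22 and Rpl7 are highest in the pair-fed livers, and Rpl7l1 is highest in the Mettl3 ethanol livers.

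The other related pairs are given in turn. Rpl22l1, the paralog that can take the place of Rpl22, had 38.0, 40.1 and 33.8 FPKM in Mettl3 ethanol livers, 37.3, 31.4 and 31.3 FPKM in control ethanol livers and 32.5, 35.2 and 41.6 FPKM in pair-fed livers. The groups overlap. For control ethanol over pair-fed livers the log2 fold change of Rpl22l1 was −0.12 (SE 0.12, limma adjusted p = 0.469) and turned to 0.060 after scaling. Rpl36a had 104, 106 and 133 FPKM in Mettl3 ethanol livers, 107, 101 and 108 FPKM in control ethanol livers and 153, 143 and 149 FPKM in pair-fed livers, and fell, with a log2 fold change of −0.49 in control ethanol livers (limma adjusted p = 0.00622; −0.30 after scaling, limma adjusted p = 0.0541). Rpl36al, which encodes a nearly identical protein, had 192, 197 and 187 FPKM in Mettl3 ethanol livers, 165, 172 and 177 FPKM in control ethanol livers and 182, 168 and 169 FPKM in pair-fed livers, with a log2 fold change of −0.018 (SE 0.088, limma adjusted p = 0.888) in control ethanol over pair-fed livers, which turned to 0.17 after scaling, and of 0.15 in Mettl3 ethanol over pair-fed livers (limma adjusted p = 0.180). The differences within a pair were not tested.

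Rps27l, a paralog of Rps27 induced by p53, had 25.4, 27.5 and 29.9 FPKM in Mettl3 ethanol livers, 27.4, 23.9 and 26.1 FPKM in control ethanol livers and 30.8, 29.7 and 31.8 FPKM in pair-fed livers, a log2 fold change of −0.25 for control ethanol over pair-fed livers (limma adjusted p = 0.0715). The single-exon copy Rps27rt had 15.3, 16.3 and 12.7 FPKM in Mettl3 ethanol livers, 9.87, 12.7 and 15.1 FPKM in control ethanol livers and 16.04, 14.8 and 14.9 FPKM in pair-fed livers. Its first control ethanol liver was the lowest, as for Rps27, from which reads of the copy may not be separable. Of the other retrogenes Rpl37rt and Rpl6l fell in control ethanol livers, with log2 fold changes of −0.38 for Rpl37rt (limma adjusted p = 0.0146) and −0.33 for Rpl6l (limma adjusted p = 0.0339), and neither was called after scaling. Rps4x and Rpl39, both on the X chromosome, have copies not tested here: Rps4x fell, with a log2 fold change of −0.47 (limma adjusted p = 0.00808) and Rpl39 by one of −0.31 (limma adjusted p = 0.0387) in control ethanol over pair-fed livers. Neither was called after scaling, at −0.28 for Rps4x (limma adjusted p = 0.0626) and −0.13 for Rpl39 (limma adjusted p = 0.351).

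Rps23rg1, a retrogene of Rps23, was under the filter, and its pair-fed livers stood apart from all 6 ethanol-fed livers. Its reads numbered 0, 2 and 5 in the Mettl3 ethanol livers, 12, 2 and 3 in the control ethanol livers and 50, 65 and 45 in the pair-fed livers. When no filter was used it was called lower in control ethanol livers, with a log2 fold change of −0.78 (limma adjusted p = 0.00559), and in Mettl3 ethanol livers, with one of −0.86 (limma adjusted p = 0.000643), both against pair-fed livers and on the log2(FPKM + 1) scale, which understates changes of low genes.

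Further lists of genes that work with the ribosome were counted in the same fits. Of 4 further ribosome components outside the name rule 3 fell in control ethanol over pair-fed livers and none rose, with a median log2 fold change of −0.31, and none of the 4 was called after scaling. Rack1, a scaffold on the small subunit, had 158, 160.3 and 159 FPKM in Mettl3 ethanol livers, 145, 147 and 146 FPKM in control ethanol livers and 181, 175 and 193 FPKM in pair-fed livers. Of 16 other mRNAs with a TOP tract 9 fell and none rose, with a median of −0.37, and 5 fell after scaling. Eif4b, a cofactor of the initiation helicase that is counted here and among the initiation factors, had 31.9, 32.6 and 41.5 FPKM in Mettl3 ethanol livers, 55.5, 52.4 and 38.96 FPKM in control ethanol livers and 103, 103 and 112 FPKM in pair-fed livers, without overlap between the ethanol-fed and the pair-fed livers. Eif4b changed by −1.12 on the log2 scale for control ethanol over pair-fed livers (SE 0.14, limma adjusted p = 0.00224) and −1.57 for Mettl3 ethanol over pair-fed livers (limma adjusted p = 0.000307). Naca, of the complex that meets the nascent chain at the tunnel exit, and Eif3h, of the initiation factor eIF3, also fell, Naca by a log2 fold change of −0.54 (limma adjusted p = 0.00572) and Eif3h by one of −0.49 (limma adjusted p = 0.00716).

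Of 45 ribosome biogenesis factors 16 rose and 4 fell in control ethanol over pair-fed livers, with a median log2 fold change of 0.21, and 26 rose and 1 fell after scaling; the shares over all genes are those given above. Tsr1, needed for small subunit maturation, had 15.4, 16.8 and 9.04 FPKM in Mettl3 ethanol livers, 11.4, 13.2 and 10.9 FPKM in control ethanol livers and 4.62, 4.42 and 3.94 FPKM in pair-fed livers, a log2 fold change of 1.26 for control ethanol over pair-fed livers (SE 0.11, limma adjusted p = 0.000768). Nop58, a core protein of the particles that methylate ribosomal RNA, had 33.02, 39.8 and 19.8 FPKM in Mettl3 ethanol livers, 19.1, 31.8 and 21.2 FPKM in control ethanol livers and 8.45, 7.43 and 8.09 FPKM in pair-fed livers, a log2 fold change of 1.44 (SE 0.18, limma adjusted p = 0.00224). Ltv1, which exports small subunit precursors, rose by 0.80 (limma adjusted p = 0.00430), while Dkc1, the ribosomal RNA pseudouridine synthase, fell, with a log2 fold change of −0.81 (limma adjusted p = 0.00426). In Mettl3 ethanol over pair-fed livers 19 rose and 2 fell, with a median of 0.26, and Bysl and Rrp12, both of the small subunit precursor, rose, Bysl by a log2 fold change of 1.04 (limma adjusted p = 0.000888) and Rrp12 by one of 0.96 (limma adjusted p = 0.000796).

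**Figure D5:**
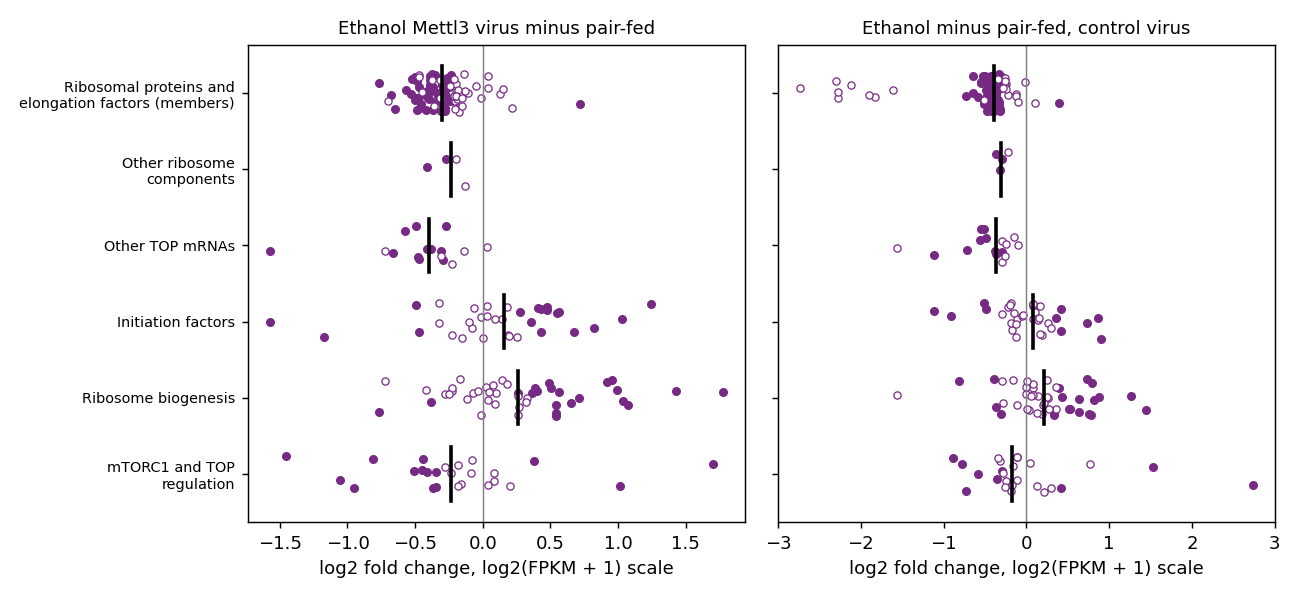
log2 fold change of each tested gene in the members and in 5 further lists, for Mettl3 ethanol over pair-fed livers (left) and control ethanol over pair-fed livers (right); filled points have an adjusted p under 0.05 and the black bars are the medians. The medians of the members, of the other ribosome components and of the other TOP mRNAs lie below 0 in FPKM as deposited, though that of the other ribosome components turned to 0.036 after scaling in Mettl3 ethanol over pair-fed livers. Those of initiation and of biogenesis factors lie above 0.

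Of 34 initiation factors 6 rose and 4 fell in control ethanol over pair-fed livers, with a median of 0.08, where 10.0% of all genes were called higher and 26.0% lower. After scaling 11 rose and 4 fell, where 17.6% of all genes were called higher and 16.7% lower. Eif6, which holds the large subunit apart from the small one until it is mature, had 54.5, 57.4 and 46.97 FPKM in Mettl3 ethanol livers, 37.5, 46.5 and 40.3 FPKM in control ethanol livers and 23.6, 21.7 and 19.9 FPKM in pair-fed livers, a log2 fold change of 0.90 (SE 0.11, limma adjusted p = 0.00229). Eif2b3, of the exchange factor of eIF2, rose by 0.87 (limma adjusted p = 0.00427), and Eif4a2, an initiation helicase, fell, with a log2 fold change of −0.91 (limma adjusted p = 0.00432). In Mettl3 ethanol over pair-fed livers 13 initiation factors rose and 4 fell, with a median of 0.16, where 13.9% of all genes were called higher and 34.9% lower, among them Eif2b4, which rose by 1.03 (limma adjusted p = 0.000640). Of 7 further elongation genes tested, Dph5, which takes part in making the diphthamide of eEF2, rose by 0.56 (limma adjusted p = 0.0118) and Eef1d, a subunit of the eEF1A exchange complex, fell, with a log2 fold change of −0.55 (limma adjusted p = 0.00689) in control ethanol over pair-fed livers. Over pair-fed livers, Mettl3 ethanol livers had higher Dph5 and Eif5a and lower Eef1d, of 8 tested.

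Of 25 genes of mTORC1 signalling and TOP mRNA control, 3 rose and 6 fell in control ethanol over pair-fed livers, and 3 rose and 11 fell in Mettl3 ethanol over pair-fed livers. The shares of the list were 12% higher and 24% lower in the first of these, near the 10.0% and 26.0% of all genes, and 12% and 44% in the other, against 13.9% and 34.9% of all genes. After scaling 4 rose and 4 fell in control ethanol over pair-fed livers (17.6% and 16.7% of all genes), and 5 rose and 5 fell in Mettl3 ethanol over pair-fed livers (25.3% and 21.6% of all genes), where the median turned above 0. The genes named next are those of smallest p and do not stand for the list. Ddit4, an inhibitor of mTORC1 induced by stress, had 4.89, 5.00 and 2.36 FPKM in Mettl3 ethanol livers, 28.4, 14.5 and 8.37 FPKM in control ethanol livers and 1.39, 1.27 and 1.66 FPKM in pair-fed livers, with no overlap of the 3 groups. Ddit4 changed by 2.73 on the log2 scale for control ethanol over pair-fed livers (SE 0.36, limma adjusted p = 0.00254), and −1.72 for Mettl3 ethanol over control ethanol livers, short of the threshold (limma adjusted p = 0.641). Eif4ebp3, a translation repressor under mTORC1, had 27.5, 25.8 and 17.4 FPKM in Mettl3 ethanol livers, 21.3, 12.1 and 32.5 FPKM in control ethanol livers and 6.90, 6.56 and 5.81 FPKM in pair-fed livers, and rose in control ethanol livers by 1.53 (SE 0.30, limma adjusted p = 0.00914). Its relative Eif4ebp2 fell, by a log2 fold change of −0.73 (limma adjusted p = 0.00465), as did Sesn1, a nutrient sensor upstream of mTORC1, by one of −0.78 (limma adjusted p = 0.00755). Of 6 S6 kinase family genes tested, Rps6ka3 rose in control ethanol livers, by 0.65 (limma adjusted p = 0.00985). Of 7 ribosomal protein pseudogenes only Rpl34-ps1 was high enough to test, and it was called in none of the 3 comparisons as deposited and called higher in Mettl3 ethanol over pair-fed livers after scaling. No gene of any of these lists passed the test in Mettl3 ethanol over control ethanol livers.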

How the data were processed

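The deposited FPKM values, 1 column per library, came from reads trimmed with fastp, aligned to mm10 with HISAT2 and counted with HTSeq, per the submitters' processing notes; versions, strand setting and treatment of reads with several matches are not given in the sources used here. Per the file headers the authors also gave mean normalized signal per group, a ratio (fold change) and its log2, and p-values with q-values, from DESeq2. The 2 tables were joined on gene; the control ethanol columns they share differed by at most 1.08e-06 in relative terms. Whole reads were recovered from the deposited values (100% within 0.05 of a whole number, for values under 1000 reads). Read totals were 34656256 to 38159563 per library.

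Log2(FPKM + 1) was tested with limma 3.58.1 in R 4.3.3 (moderated test, trend and robust settings) on all genes that reached an FPKM of 1 in 3 or more libraries of the fit, with Benjamini-Hochberg adjustment over all of them and a threshold of 0.05. The first 2 comparisons used 6 libraries each and the third all 9. Alternatives were another pseudocount, no filter, median-ratio scaling, other library sets, a replicate block, limma-voom on the recovered reads and limma without trend and robust settings.

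The members and lists were chosen with earlier results of these data known. Named in full are the elongation factors, the P stalk, members low in 1 library (over 4-fold below each of the other 8), the 6 lowest and 6 highest log2 fold changes per comparison, paralog pairs, the 3 highest members, and up to 4 genes of each further list by smallest p. Some genes that this rule names are not reported here. Values were summarised in Python 3.11.15 with pandas 2.3.3.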

Additional observations from a re-analysis of the deposited data

How the results depend on the processing

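Median-ratio scaling changed the counts most. In control ethanol over pair-fed livers it gave 2 higher and 11 lower members with a median log2 fold change of −0.21, and without control ethanol liver 1 as well, a setting chosen after seeing the data, 8 lower and a median of −0.17, where 20% of all genes were called lower. In Mettl3 ethanol over pair-fed livers the scaling gave 5 higher and 6 lower with a median of −0.029. On the 6 libraries of the comparison alone it gave 5 higher and 6 lower with −0.0236, and without control ethanol liver 1 it gave 6 higher and 6 lower with −0.0255. The last 2 settings were also chosen after seeing the data. In each 21.8% of all genes were called lower, and 25.2% were called higher on the 6 libraries and 26.0% without control ethanol liver 1. Leaving out single libraries gave 26 to 79 lower and 0 to 1 higher members in control ethanol over pair-fed livers, with medians of −0.42 to −0.38, and 29 to 62 lower in Mettl3 ethanol over pair-fed livers, with medians of −0.34 to −0.28. Beyond the smaller number of libraries, the cause was not tested. In Mettl3 ethanol over control ethanol livers no member was called in any alternative. The same 8 members were low in control ethanol liver 1 at 2-fold, at 8-fold and after scaling.

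The replicate numbers of the titles showed no consistent pairing of the libraries: deviations of same-numbered libraries correlated at −0.19, −0.12 and 0.11 in the first comparison, −0.36, 0.40 and −0.42 in the second and 0.05, −0.05 and 0.09 in the third. With 3 libraries per group such correlations cannot exclude a pairing. With the replicate block 38 members were lower and 0 higher in control ethanol over pair-fed livers, where 19.7% of all genes were called lower and 7.89% higher; Rpl7l1 then had a limma adjusted p of 0.0659. The replicate block gave 42 lower members in Mettl3 ethanol over pair-fed livers, where 30.9% of all genes were called lower, and 0 members were called in the other comparison.

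The signs of some single genes turned. For control ethanol over pair-fed livers, scaling gave log2 fold changes of 0.168 for Rpl36al, 0.0681 for Rps19bp1, 0.0642 for Rpl12 and 0.0597 for Rpl22l1. Scaling without control ethanol liver 1 gave 0.259 for Rpl36al, 0.138 for Rps19bp1, 0.0585 for Rpl12, 0.0401 for Rpl22l1, 0.072 for Eef1g and 0.108 for Rps27rt. Omitting single libraries gave −0.0431 to 0.0202 for Rpl36al. For Mettl3 ethanol over control ethanol livers, scaling gave 0.0087 for Rpl10a, 0.0093 for Rps15, 0.0183 for Eef2, 0.0335 for Rps28, 0.0394 for Rpl22 and 0.0432 for Rpl36. Scaling without control ethanol liver 1 gave 0.0086 for Rps28, 0.0135 for Rpl22 and −0.035 for Eef1a1. Omitting single libraries gave −0.128 to 0.0058 for Rpl22, −0.12 to 0.0145 for Rpl36 and −0.0454 to 3.1105 for Eef1a1, the lowest without control ethanol liver 1. For Mettl3 ethanol over pair-fed livers, scaling gave 0.1152 for Rplp0, 0.0148 for Eef1b2 and 0.0051 for Rplp2. With scaling on the 6 libraries alone they were at 0.1206 (Rplp0), 0.0202 (Eef1b2) and 0.0105 (Rplp2), and with scaling without control ethanol liver 1 at 0.1187 (Rplp0), 0.0183 (Eef1b2) and 0.0086 (Rplp2). Omitting single libraries gave −0.0386 to 0.135 for Rpl22l1. The cause was not tested.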
